A study of Mus musculus with 2 samples.

Results

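The genes described are 9 chemokine receptor genes of the mouse: Ccr2, Ccr4, Ccr7, Ccr8, Cxcr2, Cxcr3, Cxcr4, Cxcr6 and Cx3cr1. They were found by matching the transcript accession of each array probe to a RefSeq gene symbol, and are 9 of 23462 genes with a matched probe. All 9 were on the array, with 14 probes in all (2 probes each for Ccr4, Ccr7, Cxcr4, Cxcr6 and Cx3cr1, and 1 each for the other 4). The cells were naive CD8 T cells of C57BL/6 spleen, enriched with a kit and an antibody to CD44. Both cultures were activated for 2 days with antibodies to the T cell receptor and CD28 plus interleukin-2, and then kept for 3 days in interleukin-2 on a new plate. One culture also received prednisolone, a synthetic glucocorticoid, at 1 µM in the activation step, and the other received vehicle. RNA of day 5 was put on 1 array per culture. The age, sex and number of mice, and whether the cultures shared a mouse, are not given in the sources used here. With 1 array per group no difference could be tested, and the spread between cultures is unknown.

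Chemokine receptors are receptors of the G protein-coupled class that signal mainly to inhibitory G proteins and steer leukocytes along gradients of chemokines. In CD8 T cells they sort the cells between lymphoid organs and tissue. CCR7 marks naive and central memory cells that enter lymph nodes, CXCR3 marks effector cells drawn to inflamed tissue, and CX3CR1 marks cytotoxic effector and patrolling cells. CCR4 and CCR8 are best known on type 2, regulatory and skin-homing T cells, CXCR6 on tissue-resident cells, CCR2 on monocytes and some effector T cells, CXCR2 on neutrophils, and CXCR4 on most leukocytes as the receptor for CXCL12, which holds cells in bone marrow.

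The 9 genes did not all differ in one direction. Cx3cr1, the receptor gene for fractalkine, was at least 79.3-fold brighter with prednisolone, Ccr4 was 8.18-fold higher and Cxcr2 at least 5.69-fold higher. Ccr8 and Cxcr4 were each 2.05-fold higher. Cxcr6 was 2.58-fold and Ccr7 2.001-fold lower, and Ccr2 and Cxcr3 lay within 2-fold. Thus 5 of the 9 were higher by 2-fold or more, where 6.87% of all 13139 genes with a value were, and 2 of the 9 were lower by 2-fold or more, where 7.84% of all genes were. The genes were chosen with earlier results of these data known, so these counts describe the 9 genes only. The median log2 difference of the 7 genes measured on both arrays was −0.05, beside 0.001 over the 11968 genes measured on both. The count of higher genes was 3, without Ccr8 and Cxcr4, under 4 other settings. A stricter filter on dim probes, which also takes no bounds, left 1, Ccr4.

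**Figure D1:**
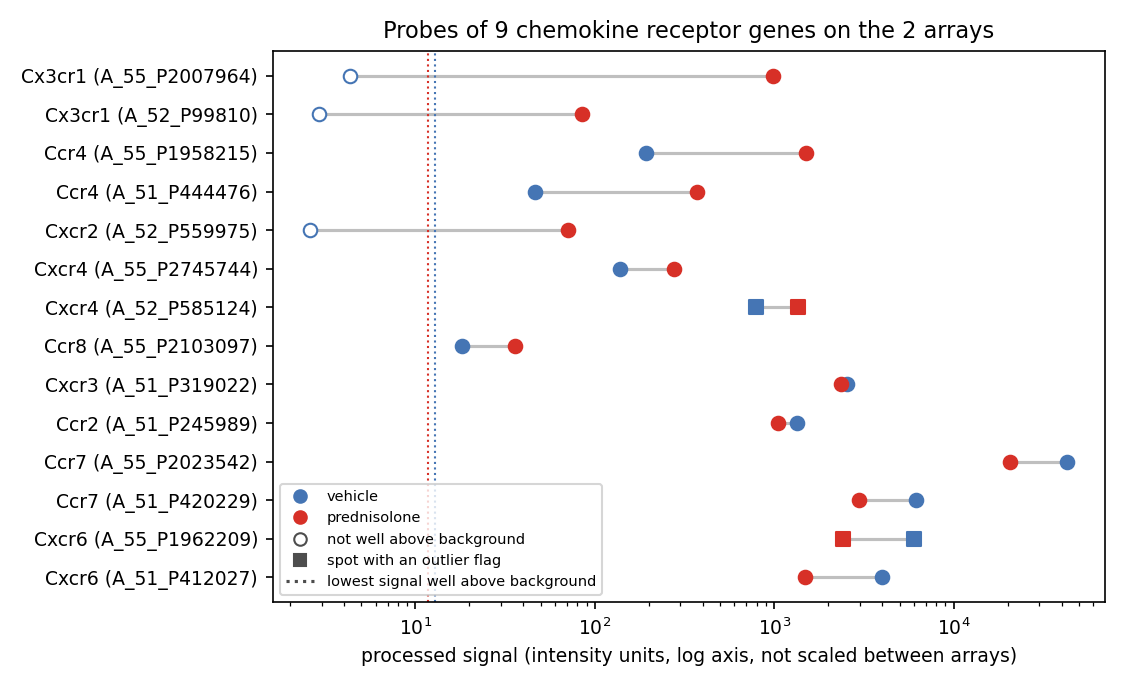
Processed signal of each of the 14 probes on the vehicle array (blue) and the prednisolone array (red), in intensity units on a log axis; open circles were not well above background, squares carry an outlier flag on 1 array, and the dotted lines mark the lowest signal well above background on each array. Both Cx3cr1 probes and the Cxcr2 probe were open on the vehicle array, and both probes of every gene with 2 lay on the same side.

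Values are given first as the processed signal of a probe, in intensity units that the scanner software had already corrected for background. A difference is log2 of that signal divided by the 75th percentile of its own array (400.4 units for vehicle and 386.9 for prednisolone), prednisolone minus vehicle. The error after ± is the scanner software's own error carried to the log2 scale, and it leaves out differences between cultures. A spot is called well above background when the software sets that flag, and the lowest such signal was 12.8 units for vehicle and 11.7 for prednisolone. Among probes printed repeatedly, the log2 difference had a median SD between spots of 0.027 for the 273 probes of 100 units or more, and of 0.23 for 7 dimmer ones. On each array 53.5% of spots were well above background, and none was saturated. These are RNA levels of whole cultures, in which fewer cells of a type and less RNA per cell cannot be told apart, and no receptor protein was measured.

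Cx3cr1 had 2 probes. Probe A_55_P2007964 read 4.3 units with vehicle, not well above background, and 982.3 units with prednisolone. Probe A_52_P99810 read 2.9 and 85.1 units in the same order. Both probes were thus at background with vehicle and clearly above it with prednisolone. Against the lowest signal well above background on the vehicle array, the difference was at least 79.3-fold by the brighter probe and at least 6.87-fold by the dimmer one. Of the 556 genes with such a bound in this direction, 2 had a bound larger than that of Cx3cr1. After another background correction (normexp) the bound of Cx3cr1 was 3.70 on the log2 scale, in place of 6.31. Here normexp also adds 50 units to each signal, which by itself shrinks differences and bounds that involve dim signals. With no background correction the bound of Cx3cr1 was 4.34, so its size depends on how background is treated. The direction of a bound is set by which array was flagged well above background, so no alternative that gave a bound could reverse it. With no filter on dim probes Cx3cr1 had a difference in place of a bound, and it was 6.40.

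Ccr4, which binds CCL17 and CCL22, was the member with the largest difference among those measured on both arrays. Probe A_55_P1958215 read 192.4 units with vehicle and 1501 with prednisolone. Probe A_51_P444476 read 46.3 and 371 units. The 2 probes gave log2 differences of 3.01 and 3.05, with a mean of 3.03 ± 0.15. Of the 11968 genes measured on both arrays, 39 had a larger difference in this direction. Under 12 other ways of processing, Ccr4 lay between 2.35 and 3.27.

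Ccr8, the receptor gene for CCL1, was dim on both arrays. Its single probe read 18.1 units with vehicle and 35.9 with prednisolone, both well above background but close to its limit. The log2 difference was 1.04 ± 0.31. With no background correction it was 0.44, so a 2-fold difference of Ccr8 rests on the subtraction of background. The difference was 0.29 after normexp, where the 50 units added to each signal shrink it by themselves. Ccr8 and Cx3cr1 are neighbouring protein-coding genes on chromosome 9 of the RefSeq annotation of GRCm38.p6.

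Cxcr2, the receptor gene for CXCL1 and related neutrophil-attracting chemokines, had 1 probe. It read 2.6 units with vehicle, not well above background, and 70.5 with prednisolone. The bound was 2.51 on the log2 scale, and 51 of the 556 genes bounded in this direction had a larger one. The bound was 1.04 after normexp. Because Cxcr2 is best known on neutrophils, their markers were read beside it. Of 12 neutrophil markers, 11 had a usable probe, and the summed processed signal of these probes was 1473 units with vehicle and 1051 with prednisolone. Most of both sums came from Ly6g (1210.9 and 791.5 units). S100a8, S100a9, Camp, Ltf, Mmp8, Ngp and Retnlg were not well above background with vehicle or with prednisolone. Ly6g was −0.56 ± 0.20, Elane 0.11 ± 0.21 and Lcn2 −0.15 ± 0.33, and Mpo, seen with vehicle only, had a bound of 1.34-fold lower. Csf3r had only a probe with an outlier flag, at 31022.5 and 34921 units, so it is not among the usable ones.

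Cxcr4 had a usable probe and a flagged one. The usable probe A_55_P2745744 read 138.9 units with vehicle and 275.3 with prednisolone, a log2 difference of 1.04 ± 0.21. Probe A_52_P585124, whose spot on the prednisolone array carried an outlier flag of the local background, read 787.5 and 1350.2 units, a difference of 0.83. Both probes were higher with prednisolone. With flagged spots kept the gene's difference was 0.93, and it was at least 2-fold higher under 6 of the 11 alternatives that gave it a value.

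Among the lower genes, Cxcr6, the receptor gene for the membrane-bound chemokine CXCL16, read 3991.2 units with vehicle and 1492.2 with prednisolone on its usable probe A_51_P412027. The log2 difference was −1.37 ± 0.20, and 3.31% of the genes measured on both arrays were lower than that. Its second probe, A_55_P1962209, flagged for its local background on the prednisolone array, read 5993.5 and 2417.6 units, a difference of −1.26. Cxcr6 stayed at least 2-fold lower under all 12 alternatives, between −1.43 and −1.14.

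Ccr7, the lymph node homing receptor gene, was bright on both arrays. Probe A_55_P2023542 read 42836.5 units with vehicle and 20611.4 with prednisolone, and probe A_51_P420229 read 6139 and 2975.3 units. The 2 probes differed by 2.01-fold and 1.99-fold, so the gene's mean of −1.001 ± 0.14 sat on the threshold. It remained at least 2-fold lower under 9 of 12 alternatives and was −0.77 when the arrays were scaled on 8 spike-in controls.

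The remaining receptors were bright and differed little. Ccr2 read 1333.9 units with vehicle and 1044.9 with prednisolone, a log2 difference of −0.30 ± 0.20. Cxcr3, which binds the interferon-induced chemokines CXCL9, CXCL10 and CXCL11, read 2534.5 and 2368.1 units, a difference of −0.05 ± 0.20 that is smaller than its error and changed sign under 3 alternatives (up to 0.19 with spike-in scaling).

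**Figure D2:**
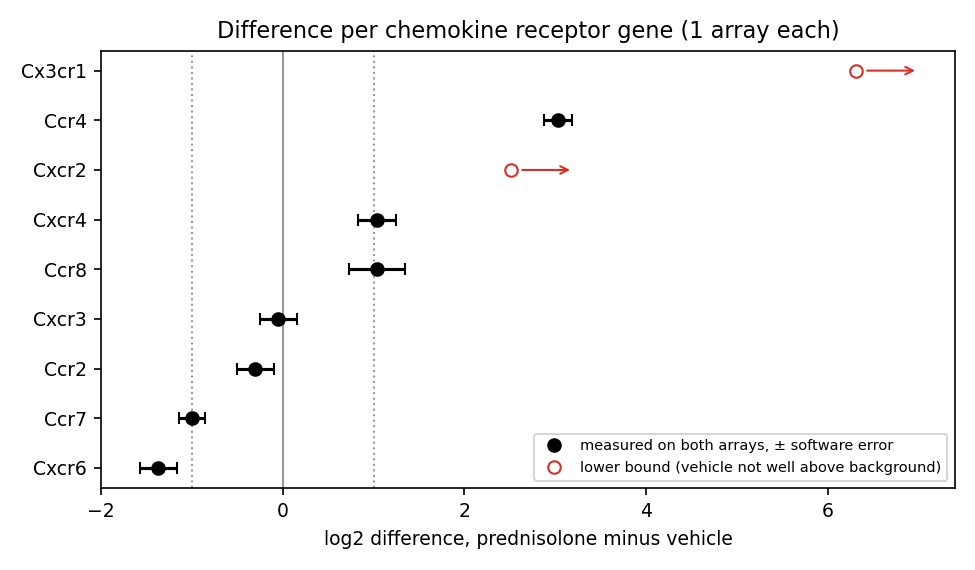
Log2 difference, prednisolone minus vehicle, of each receptor gene; black points are means over probes measured on both arrays with the software's error, red open points are lower bounds with an arrow toward larger values, and dotted lines mark 2-fold. Cx3cr1 (bound 6.31), Ccr4 (3.03) and Cxcr2 (bound 2.51) lie to the right, Ccr8 and Cxcr4 (1.04 each) and Ccr7 (−1.001) lie on the dotted lines, and Cxcr6 (−1.37) lies to the left.

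Markers of other cells were read beside Cx3cr1, Ccr2, Ccr4 and Ccr8, since monocytes, other myeloid cells and regulatory T cells also carry these receptors. Of 11 markers of monocytes and macrophages, all had a usable probe, and 6 (Adgre1, C1qa, Fcgr1, Lyz2, Mertk and Ms4a7) were not well above background in vehicle or prednisolone. Their summed signal was 76455 units with vehicle and 39759 with prednisolone, nearly all of it from Ly6c2, which activated CD8 T cells also express (72034.9 and 35855.1 units). Csf1r was 0.23 ± 0.21 and Itgam 0.02 ± 0.22, and Cd68 was −2.22 ± 0.20. Cd14, at 11.1 units with vehicle and 13.7 with prednisolone, was well above background with prednisolone only, a bound of 1.11-fold higher. Of 6 markers of CD4 and regulatory T cells, 5 had a usable probe and their summed signal was 2552 units with vehicle and 1770 with prednisolone. Foxp3 was −0.75 ± 0.22 and Cd4 0.08 ± 0.20, beside differences of 3.03 for Ccr4 and 1.04 for Ccr8. Of the dendritic cell markers 5 of 7 were not well above background, with Siglech at 0.06 ± 0.20 and Batf3 2.70-fold higher (1.43). The Siglech value is of 1 probe, at 37517.1 units with vehicle and 37873.2 with prednisolone. A second Siglech probe was well above background on neither array. Among 7 markers of NK and γδ T cells, Cd163l1 was 2.66-fold higher and Klra8 at least 4.52-fold higher (a bound of 0.81 on the log2 scale after normexp). Sox13 was −0.16 and Klrb1c 0.07, Klrb1b was well above background on neither array, and their list's summed signal was 655 units with vehicle and 1233 with prednisolone. The part of such cells in the results, Cx3cr1 included, was not tested. Of 8 B cell markers, Vpreb3 was at least 17.4-fold lower (−1.89 on the log2 scale after normexp, in place of −4.12), and the list's summed signal was 238 and 35.3 units. Vpreb3 alone gave 211.6 and 9.2 units of these sums, and Pax5 was −0.09 ± 0.44. Cd79b had only a probe with an outlier flag, at 1062.8 units with vehicle and 1623 with prednisolone, so it is not in the sums. Of 10 markers of CD8 T cells, 7 had a usable probe and all 7 were well above background on both arrays. Cd8a was −0.01 ± 0.14, Cd3e −0.42 ± 0.20 and Cd247 −0.95 ± 0.20. The Cd247 value is the mean of −0.47 (753.9 and 524.2 units) and −1.42 on a dim probe (44.1 and 16 units). It was −0.43 after normexp, and a brighter Cd247 probe with an outlier flag was −0.40.

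Chemokine receptor genes outside the 9 were mostly at background. Of 15 such genes considered here, 12 had a usable probe and 11 of these (Ackr1, Ackr2, Ackr3, Ackr4, Ccr1, Ccr1l1, Ccr3, Ccr6, Ccr9, Cmklr1 and Cxcr5) were not well above background with either treatment. The remaining gene, Ccr10, a receptor for skin and mucosal chemokines, read 89.4 units with vehicle and 282.8 with prednisolone, 3.27-fold higher (1.71 ± 0.21). Ccrl2, Cxcr1 and Xcr1 had only flagged probes. The Ccrl2 probe read 525.8 units with vehicle and 103 with prednisolone. The Cxcr1 probe read 5.6 units with vehicle, not well above background, and 23.2 with prednisolone, well above it. The Xcr1 probe was well above background on neither array.

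Cxcr6, Xcr1, Ccr1, Ccr1l1, Ccr3 and Ccr2 follow one another as protein-coding genes on chromosome 9 in the RefSeq annotation. Within that run Cxcr6 was lower with prednisolone by 2.58-fold. Ccr2 differed little (1.23-fold lower, −0.30 ± 0.20), and Xcr1 had only a flagged probe. Ccr1, Ccr1l1 and Ccr3 were well above background on neither array.

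The start regions of 4 of the 5 higher genes (Cx3cr1, Ccr4, Cxcr2 and Cxcr4, without the dim Ccr8) are shown to let a reader see what they hold, with that of Cxcr6, the lowest member, beside them. The RefSeq table of GRCm38.p6 held 8 of the 9 genes, without Ccr7. Each window runs from 250 bases before to 50 bases after the annotated start, read 5′ to 3′ on the gene's strand, and capitals mark matches on either strand to AGAACA (the half-site of the glucocorticoid receptor), to its palindrome (AGAACA, 3 bases of any kind and then its reverse complement TGTTCT, so that it holds the half-site on each strand), to TGANTCA (AP-1) or to AGGTGT (the T-box core). The windows are chr9:120068247-120068546 on the minus strand for Cx3cr1, chr9:114496495-114496794 on the minus strand for Ccr4, chr1:74153744-74154043 on the plus strand for Cxcr2, chr1:128592250-128592549 on the minus strand for Cxcr4 and chr9:123806227-123806526 on the plus strand for Cxcr6.
Cx3cr1: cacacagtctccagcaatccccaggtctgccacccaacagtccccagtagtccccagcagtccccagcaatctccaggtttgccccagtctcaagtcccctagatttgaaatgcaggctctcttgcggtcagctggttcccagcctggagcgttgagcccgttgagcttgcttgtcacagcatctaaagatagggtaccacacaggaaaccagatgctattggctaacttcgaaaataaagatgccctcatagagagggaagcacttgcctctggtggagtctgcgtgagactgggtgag
Ccr4: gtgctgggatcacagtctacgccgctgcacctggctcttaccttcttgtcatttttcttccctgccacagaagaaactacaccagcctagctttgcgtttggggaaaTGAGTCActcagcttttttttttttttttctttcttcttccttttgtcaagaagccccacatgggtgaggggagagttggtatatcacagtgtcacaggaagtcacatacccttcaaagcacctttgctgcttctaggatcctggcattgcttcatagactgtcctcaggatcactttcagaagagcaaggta
Cxcr2: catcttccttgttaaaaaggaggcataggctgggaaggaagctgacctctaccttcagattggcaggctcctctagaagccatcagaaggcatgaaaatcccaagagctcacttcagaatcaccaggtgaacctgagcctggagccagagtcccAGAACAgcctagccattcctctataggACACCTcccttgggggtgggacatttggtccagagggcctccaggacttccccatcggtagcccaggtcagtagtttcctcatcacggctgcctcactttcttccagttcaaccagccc
Cxcr4: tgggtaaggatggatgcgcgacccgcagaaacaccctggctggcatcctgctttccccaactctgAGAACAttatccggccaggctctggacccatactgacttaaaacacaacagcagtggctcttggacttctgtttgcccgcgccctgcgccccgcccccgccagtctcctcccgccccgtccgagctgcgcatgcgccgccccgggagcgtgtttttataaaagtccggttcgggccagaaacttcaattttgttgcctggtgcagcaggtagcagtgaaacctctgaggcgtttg
Cxcr6: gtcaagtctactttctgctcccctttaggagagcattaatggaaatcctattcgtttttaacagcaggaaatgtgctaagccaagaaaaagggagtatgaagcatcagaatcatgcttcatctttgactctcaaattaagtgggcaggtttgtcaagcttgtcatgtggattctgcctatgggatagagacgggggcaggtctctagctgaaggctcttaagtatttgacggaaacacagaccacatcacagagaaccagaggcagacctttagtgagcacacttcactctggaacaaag
The half-site occurred in 2 of the 8 windows, those of Cxcr2 (96 bases before the start) and Cxcr4 (185 bases before it), and in 19.0% of all 32851 windows of the table. The palindrome occurred in none of the 8 and in 3 of all windows. An AP-1 match lay 143 bases before the start of Ccr4 (7.81% of all windows hold one), and a T-box match lay 69 bases before that of Cxcr2 (13.7% of all windows). The windows of Cx3cr1, Cxcr6, Ccr8, Ccr2 and Cxcr3 held none of the 4 motifs. These are matches of letters and carry no measurement of binding.

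Chemokines, the ligands, were mostly at background too. Of 37 chemokine genes, 31 had a usable probe and 8 had a value or a bound, of which 1 was higher and 1 lower by 2-fold or more, where the shares over all genes were 6.87% and 7.84%. Ccl5, a chemokine gene that effector CD8 T cells express, read 3708.8 units with vehicle and 17800.4 with prednisolone, 4.97-fold higher (2.31 ± 0.20). Ccl4, a chemokine gene induced by T cell activation, was −0.35 ± 0.15. Ccl12, a CCR2 ligand, read 26.1 units with vehicle and was not well above background with prednisolone, a bound of 2.15-fold lower that shrank to −0.26 (log2) after normexp. Ccl17, a CCR4 ligand, was at 14.4 units with vehicle and not well above background with prednisolone. Cxcl16, the CXCR6 ligand, was 0.36 ± 0.24, Cxcl10, a CXCR3 ligand, was 0.07 ± 0.33, and Ccl27a, a CCR10 ligand, was −0.17 ± 0.14. Ccl25, a CCR9 ligand, was 0.73 ± 0.17, with 3 probes from 0.18 to 1.60. The 0.18 was of its brightest probe (229.7 and 251.6 units), and the 1.60 of a dim probe to a non-coding transcript (25.5 and 74.5 units). Cx3cl1, Ccl1, Ccl22, Ccl19, Ccl21a, Cxcl12 and Cxcl9 were well above background in neither culture. For CX3CR1, CCR7 and CXCR4 no ligand gene of the list was thus detected in these cells.

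Of 19 genes of G proteins, receptor kinases and arrestins, 16 had a value or a bound and 14 of these lay within 2-fold, as did 11206 of the 13139 genes in all. The median log2 difference was −0.25 over the 15 measured on both arrays. Arrb1, the gene of β-arrestin 1, which uncouples and internalizes activated receptors, read 9793.7 units with vehicle and 2705.8 with prednisolone and was 3.50-fold lower (−1.81 ± 0.20). Arrb2, the gene of β-arrestin 2, was 0.38 ± 0.12, with 3 probes from 0.32 to 0.47. Gnaq, a G protein α subunit gene, was 2.03-fold higher (1.02 ± 0.20, and 0.87 after normexp). The inhibitory G protein genes Gnai2 and Gnai3, through which chemokine receptors signal, were −0.25 ± 0.14 and 0.40 ± 0.20, and the receptor kinase gene Grk2 was −0.07 ± 0.14, the 2 probes lying on opposite sides of 0.

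Of 28 effectors of migration, 27 were measured on both arrays and 26 lay within 2-fold, with a median of −0.05. Pik3cg, the gene of the phosphoinositide 3-kinase subunit that G proteins activate, was 2.01-fold higher (1.01 ± 0.20, within 2-fold under 5 alternatives). The Rac activator gene Dock2 was 0.29 ± 0.20 and the GTPase gene Rac2 was −0.08 ± 0.20. Of 12 genes of receptor trafficking and modification, all were measured, with a median of −0.06. Tpst1, which encodes a tyrosylprotein sulfotransferase, an enzyme that sulfates the extracellular ends of chemokine receptors, read 629.2 units with vehicle and 1301.6 with prednisolone and was 2.14-fold higher (1.10 ± 0.20). Its paralogue Tpst2 was 0.67 ± 0.20.

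**Figure D3:**
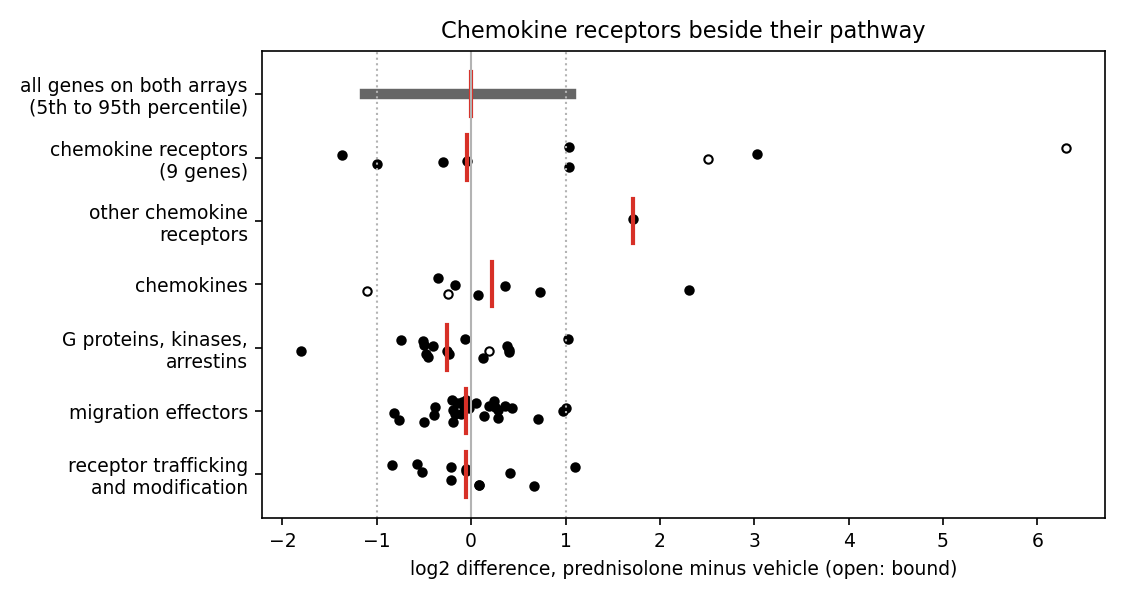
Log2 difference, prednisolone minus vehicle, of each gene with a value in the list of 9 receptors and in 5 lists of their pathway; filled points were measured on both arrays, open points are bounds, red lines are medians of the filled points, and the grey bar spans the 5th to 95th percentile of all genes measured on both arrays. The receptors reach from −1.37 to a bound of 6.31, and 26 of 27 migration effectors lie within 2-fold, as do 11206 of the 13139 genes with a value.

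**Figure D4:**
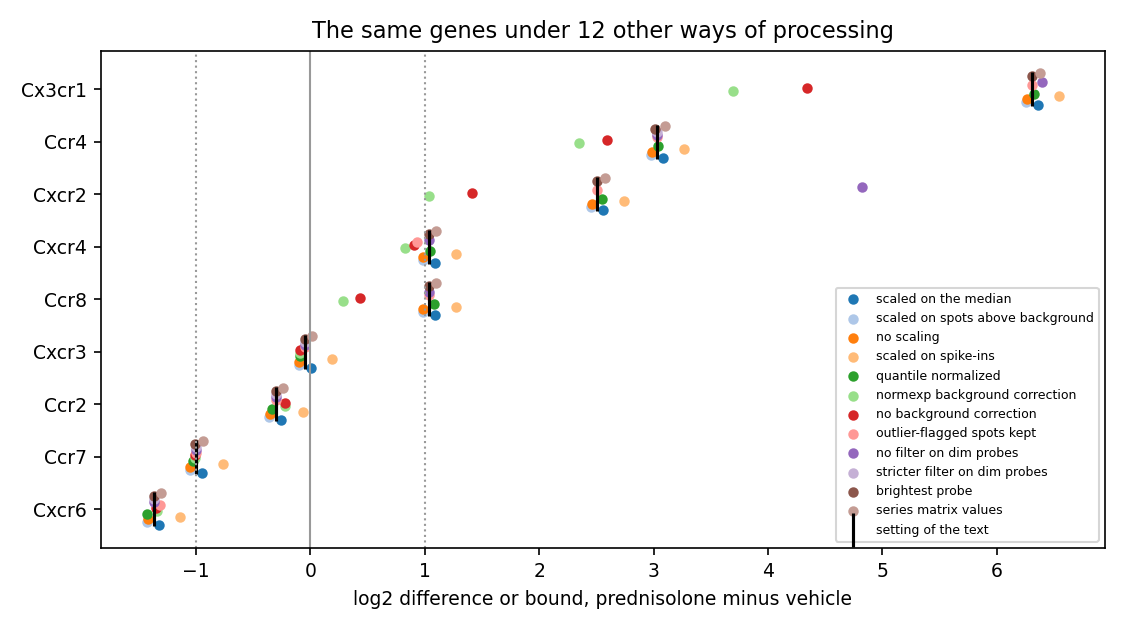
Log2 difference or bound of each receptor gene under the setting of the text (black bar) and under 12 other ways of processing (coloured points). Of these, normexp adds 50 units to each signal, which by itself shrinks values of dim genes. Cx3cr1, Cxcr2 and Ccr8 move most toward 0, to 3.70, 1.04 and 0.29 after normexp, while Cxcr6 stays between −1.43 and −1.14.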

How the data were processed

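RNA was labelled with Cy3 and hybridised to 1-colour Agilent mouse arrays, 1 per culture, per the labels. Per the file headers, the deposited intensity values were written by Agilent Feature Extraction 12.0.3.1, which had subtracted background within each array, and both arrays lay on 1 slide; yes-or-no flags and the software's error come from the same files. Flags were read as the authors deposited them. A second deposited table holds the same intensity multiplied by 1 constant per array. For the text, each processed signal was divided by the 75th percentile of its array and taken to log2. Controls were left out, as were spots flagged as outliers on either array, spots of a probe were averaged, and a gene is the mean of its probes well above background on both arrays. Where only 1 array was, a bound was taken for the brightest probe against the higher of its own value and the lowest signal well above background on the other array. A difference of 2-fold was counted without a test. Accessions were matched to RefSeq (GRCm38.p6), which named 33767 of 56605 probes; the headers name mm9. The procedure was tested on simulated data, which held no gene seen with prednisolone only, so bounds in that direction were not covered. Tools were Python 3.11.15, R 4.3.3 and limma 3.58.1 (normexp, offset 50). The files hold no mean spot signal, so the median was used for normexp. Members and gene lists were chosen with earlier results of these data known; within lists other than receptors and chemokines, up to 4 genes at each end past 2-fold were named, otherwise the one farthest from 0. Gnai2, Gnai3, Grk2, Arrb2, Dock2, Rac2, Tpst2, Cd8a, Cd3e, Cd4, Csf1r, Itgam, Cd14, Elane, Siglech, Ly6c2, Mpo, Lcn2, Csf3r, Sox13, Klrb1c, Klrb1b, Pax5, Cd79b, Ccrl2 and Cxcr1 were named after their values were seen. Some genes are not reported here. The small number of arrays limits the precision.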

Additional observations from a re-analysis of the deposited data

How the results depend on the processing

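No paired analysis was possible because each group had 1 array, and no array could be left out for the same reason. Under 12 alternatives Ccr4 and Cxcr6 kept their direction and their 2-fold difference. Cx3cr1 and Cxcr2 stayed at least 2-fold higher wherever they had a value, though the direction of a bound is set by the flags and could not reverse. The count of receptor genes at least 2-fold higher, 5 in the text, was 3 after scaling on spots above background, without scaling, after normexp and without background correction. It was 4 with flagged spots kept (without Cxcr4), and 1 under the stricter filter on dim probes. That filter left Ccr8 and Cxcr4 without a value, and it takes no bounds, so Cxcr2 and Cx3cr1 had none either, however bright with prednisolone. The count at least 2-fold lower, 2 in the text, was 1 when scaled on the median, when scaled on spike-ins and in the series matrix values, each time without Ccr7. The median of the measured receptors, −0.05 in the text, was 0.19 with spike-in scaling, 1.04 with no filter on dim probes, which brings in Cx3cr1 and Cxcr2, and −0.30 under the stricter filter. Spike-in scaling moved the median of all genes to 0.24, and raised the part of higher genes among those past 2-fold from 46.7% to 67.8%. After normexp 429 genes of all were at least 2-fold higher and 434 lower, in place of 903 and 1030. With no filter on dim probes these were 1460 and 1701, and under the stricter filter 454 and 452.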
